A study of Homo sapiens with 2 samples.

Results

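The genes described here are 8 receptors with which endothelial cells hold and pass leukocytes: ICAM1, ICAM2, SELE, SELP, VCAM1, PECAM1, CD99 and ALCAM. They were taken by symbol from the 36601 genes counted in both libraries, and all 8 were found. In a vessel wall under inflammation the selectins catch rolling leukocytes, ICAM1, ICAM2 and VCAM1 bind leukocyte integrins for firm arrest, and PECAM1, CD99 and ALCAM act at the cell border where leukocytes cross. PECAM1, CD99, ICAM2 and ALCAM are made by resting endothelium and are called constitutive below. ICAM1, SELE and VCAM1 are switched on by cytokines through NF-kB and are called inducible, while SELP is held in Weibel-Palade bodies, the storage granules of these cells, and is treated by itself.

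The cells were human umbilical vein endothelial cells (HUVECs), labelled as a cell line, grown for about 48 h into a lining of 50 µm microfluidic channels. In the hRBC group the channels were perfused for 4 h with healthy red blood cells. In the 5% pdRBC group 5% of the red cells in the same kind of suspension had been dehydrated with nystatin and sucrose washes, to 40 to 42 g/dL of mean corpuscular hemoglobin concentration, as a model of stiff sickle cells. The pdRBC are healthy red cells changed by a drug, not cells of patients, and the labels name no leukocytes or added cytokine. Each group is 1 library of 10x Genomics 5′ single-cell RNA, so treatment cannot be told apart from device, culture or library, and nothing was tested.

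After filtering, 2545 endothelial-like hRBC cells carried 13291477 UMIs (unique molecular identifiers, which mark single RNA molecules) with a median of 2157 per cell. For 5% pdRBC there were 1535 such cells, 15933769 UMIs and a median of 9729. The libraries thus differed in depth per cell far more than in total, and each receptor is given by depth as well as over all cells (ranges of UMIs per cell leave out their upper bound). All 10 endothelial markers were detected in both libraries. Leukocyte markers summed to 57 UMIs in hRBC and 47 in 5% pdRBC over 14 genes, with TYROBP, CD3E and CSF3R at 0 in both, and platelet markers to 9 and 12 UMIs over 6 genes, with PF4, PPBP and GP9 at 0. Of the cell barcodes, 6 were shared between the endothelial-like cells of the libraries. No captured cell type should lack these receptors, so a background share of cells from free RNA could not be measured.

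As background on their sequence, upstream regions of some of the receptors are printed first. RefSeq promoter entries on GRCh38.p14 matched 6 of the 8 receptors (all but PECAM1 and ICAM2). The 250 bases before each start were searched on both strands for GGNNNTTCC, a simplified NF-kB motif, and matches are in capitals. The SELE stretch is chr1:169734124-169734329, minus strand, which ends 45 bases before the start, where an annotated exon of a longer transcript begins. The ALCAM stretch is chr3:105366659-105366908, plus strand, and serves as the constitutive contrast. For ICAM1 (chr19:10270924-10270952, plus strand, inside the 5′ UTR of a longer annotated transcript) and for VCAM1 (chr1:100719670-100719698, plus strand) only the 29 bases around a match are shown.
SELE: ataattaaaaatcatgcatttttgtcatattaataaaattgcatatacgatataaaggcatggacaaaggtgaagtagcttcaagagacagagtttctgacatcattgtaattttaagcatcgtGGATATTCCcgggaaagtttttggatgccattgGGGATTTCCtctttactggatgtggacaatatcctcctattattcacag
ICAM1: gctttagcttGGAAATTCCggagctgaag
VCAM1: tccccttgaaGGGATTTCCctccgcctct
ALCAM: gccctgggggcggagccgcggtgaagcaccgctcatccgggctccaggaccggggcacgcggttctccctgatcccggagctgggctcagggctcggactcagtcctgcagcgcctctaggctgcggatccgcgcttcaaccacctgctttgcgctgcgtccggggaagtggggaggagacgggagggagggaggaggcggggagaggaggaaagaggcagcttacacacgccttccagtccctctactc

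All 3 inducible receptors held the motif and none of ALCAM, CD99 and SELP did, against 17.1% of the 34675 promoters of the same length. The inducible class was chosen as genes transcribed on NF-kB activation, so these matches are no separate support for it. The constitutive PECAM1 and ICAM2 had no entry to search. SELE had 2 matches, whose first bases lie at -126 and -93 from the start, ICAM1 had 1 at -186, and VCAM1 had 2, at -219 (minus strand of the gene, not shown) and -62. The same GGGATTTCC letters stand in SELE and VCAM1. The TATAAA box was found in the same 3 genes and in 10.8% of all promoters, and SELE alone among the 6 held TGACATCA, a variant of the cyclic AMP element, which 2.36% of promoters hold. Neither TGANTCA (an AP-1 motif, 6.57% of promoters) nor TGACGTCA (1.64%) was in any of the 6 windows. The SELE window was 37.2% G and C and the ALCAM window 68.8%, with a median of 58% over all promoters. These are letter matches and no measure of binding.

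In both libraries nearly all receptor RNA came from the constitutive genes. Of the UMIs of the 8 receptors, the 4 constitutive genes gave 98.7% (exact binomial 95% interval 98.6 to 98.9) in hRBC and 98.2% (98.0 to 98.3) in 5% pdRBC. In counts per 1000000 UMIs of the library (CPM), they summed to 2324 CPM in hRBC and 2238 CPM in 5% pdRBC. The 3 inducible genes summed to 29.3 CPM (exact Poisson 95% interval 26.4 to 32.3) in hRBC and 40.9 CPM (37.8 to 44.1) in 5% pdRBC. All intervals cover counting error only, and neither the spread between devices nor that between cells is in them. Per kilobase of the longest coding transcript, the order of the levels in hRBC was CD99 (782 CPM per kb), ICAM2 (180), PECAM1 (119), ALCAM (56.3), ICAM1 (7.63), SELE (1.11), SELP (0.168) and VCAM1 (0.0488). In 5% pdRBC the same scale gave 848, 172, 102, 45.5, 10.2, 1.85, 0.120 and 0.163 for these genes in that order. On this scale only SELP and VCAM1 changed places, and their counting intervals overlap. Because the kit counts the 5′ end of each molecule, division by length lowers long transcripts more than the assay requires. In CPM without that division PECAM1 stood second, at 810 in hRBC and 700 in 5% pdRBC. ALCAM then lay above ICAM2 in hRBC (264 and 241 CPM) and below it in 5% pdRBC (214 and 229 CPM).

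**Figure D1:**
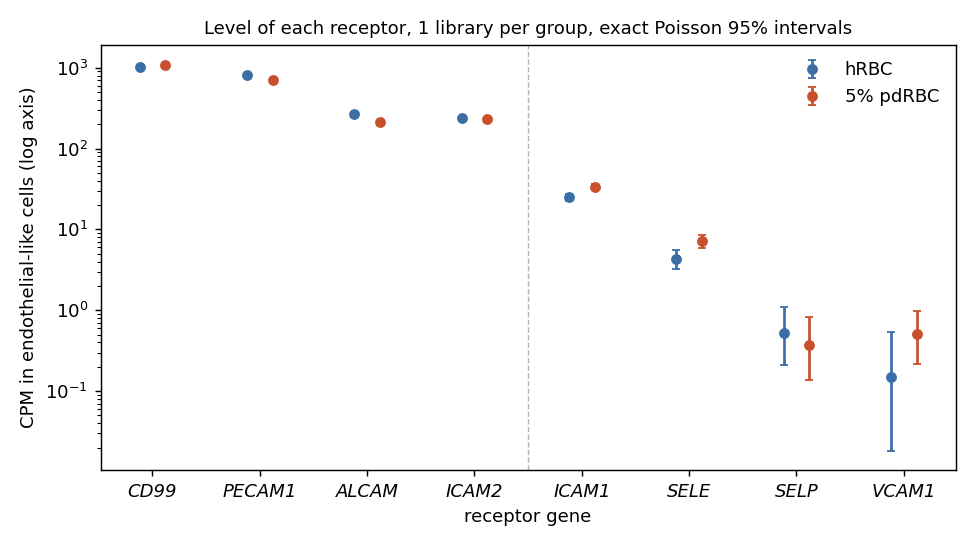
Level of each receptor in the endothelial-like cells of the hRBC (blue) and 5% pdRBC (orange) library, in CPM on a log axis, with exact Poisson 95% intervals and 1 library per group. The 4 constitutive genes left of the dashed line lie above 200 CPM in both libraries, ICAM1 and SELE lie between 4 and 34 CPM, and SELP and VCAM1 rest on 2 to 8 UMIs per library.

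The inducible genes with enough counts were higher with 5% pdRBC, with SELE at 1.66-fold and ICAM1 at 1.34-fold. Of the 4 constitutive genes, CD99 was higher and 3 were lower, ALCAM by the most. A receptor was counted as measured if the libraries together gave it at least 100 UMIs, which 6 of the 8 reached, and called where its fold was at least 1.5 with a 95% counting interval that left out 1. SELE was the only called receptor on the higher side, 1 of 6, where 1.47% of the 11011 measured genes were called, and 0 of 6 were called lower, where 1.17% were. The SELE call was lost when cells under 2000 UMIs were left out (log2 fold 0.50, against 0.73 over all cells) and when those under 5000 UMIs were (0.24). Of the 6, the interval of SELE, ICAM1 and CD99 lay above 1, which held for 14.5% of measured genes, and that of PECAM1, ICAM2 and ALCAM below 1, which held for 12.5%. The median log2 fold was 0.58 over the 2 measured inducible genes and -0.14 over the 4 constitutive genes, beside 0.01 over all measured genes. In cells of 10000 to 20000 UMIs the constitutive median was -0.000306, with ICAM2 on the higher side, and the inducible median was 0.34. With so few members these medians only describe the list.

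**Figure D2:**
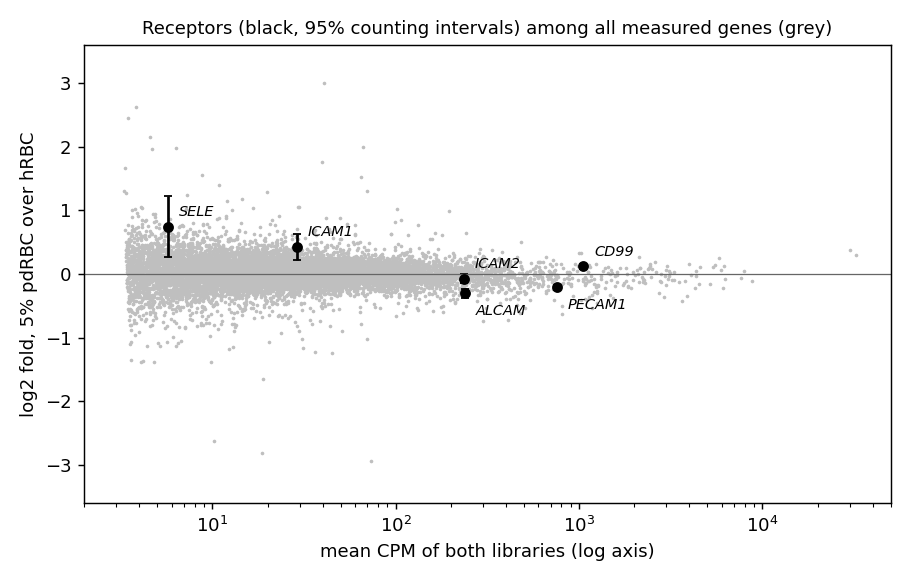
The log2 fold of 5% pdRBC over hRBC against the mean CPM of both libraries (log axis) for all 11011 measured genes (grey) and the 6 measured receptors (black, with 95% counting intervals). SELE (0.73) and ICAM1 (0.42) lie high among genes of their level, and CD99, PECAM1, ICAM2 and ALCAM lie within 0.31 of 0.

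PECAM1 (ENSG00000261371, chr17:64319415-64413776, minus strand, 16 exons in its longest coding transcript), the homophilic receptor of endothelial borders, had 10761 UMIs in hRBC and 11153 in 5% pdRBC. Its level was 810 CPM (794 to 825) in hRBC and 700 CPM (687 to 713) in 5% pdRBC, 1.16-fold lower (1.13 to 1.19) with 5% pdRBC. The difference was largest in shallow cells. PECAM1 stood at 1030 CPM in hRBC cells of 1000 to 2000 UMIs and at 1095 CPM in those of 2000 to 5000, but at 771, 708 and 735 CPM in the 3 deeper ranges (5000 to 10000, 10000 to 20000, and 20000 or more UMIs). With 5% pdRBC the 3 deeper ranges gave 702, 696 and 667 CPM. In cells of 10000 to 20000 UMIs, where both libraries hold most of their UMIs (479 and 664 cells), the fold was 0.983 (0.946 to 1.02) and no PECAM1 difference was resolved. It was 0.910 (0.854 to 0.969) at 5000 to 10000 UMIs and 0.907 (0.832 to 0.989) at 20000 or more. By counting error alone, PECAM1 was thus a little lower with 5% pdRBC on both sides of that range.

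CD99 (ENSG00000002586, chrX:2691133-2741309, plus strand, 10 exons), a small mucin-like protein that acts after PECAM1 in leukocyte passage, had 13420 and 17451 UMIs, or 1010 CPM (993 to 1027) in hRBC and 1095 CPM (1079 to 1112) in 5% pdRBC. It was 1.08-fold higher (1.06 to 1.11). The small CD99 difference held at matched depth in cells of 5000 or more UMIs. In cells of 5000 to 10000 UMIs the fold was 1.13 (1.07 to 1.20). It was 1.10 (1.06 to 1.13) at 10000 to 20000 UMIs and 1.08 (1.01 to 1.15) at 20000 or more. At 2000 to 5000 UMIs the fold was 0.977 (0.883 to 1.08), and no CD99 difference was resolved. Among the 26 shallowest 5% pdRBC cells CD99 was low, with 23 UMIs and 591 CPM against 992 CPM in hRBC. The fold there was 0.609 (0.377 to 0.897).

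ICAM2 (ENSG00000108622, chr17:64002594-64020634, minus strand, 6 exons), a constitutive ligand of the integrin LFA-1, had 3198 and 3648 UMIs. The levels were 241 CPM (232 to 249) in hRBC and 229 CPM (222 to 237) in 5% pdRBC, 1.05-fold lower (1.00 to 1.10). Its direction turned with depth. The fold was 0.682 (0.542 to 0.843) in cells of 2000 to 5000 UMIs, 1.02 (0.953 to 1.09) at 10000 to 20000 and 1.27 (1.11 to 1.45) at 20000 or more.

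ALCAM (ENSG00000170017, chr3:105366909-105576900, plus strand, 16 exons), a border receptor that binds itself and CD6 of T cells, had 3515 UMIs in hRBC and 3410 in 5% pdRBC. It stood at 264 CPM (256 to 273) in hRBC and 214 CPM (207 to 221) in 5% pdRBC, 1.24-fold lower (1.18 to 1.30), and was the constitutive gene with the largest difference. ALCAM was lower with 5% pdRBC in every depth range from 2000 UMIs up: 246 against 183 CPM, 277 against 210, 276 against 224, and 207 against 175. The folds in these ranges were 0.747, 0.757, 0.812 and 0.846, with intervals whose upper ends were 0.929, 0.845, 0.866 and 1.00. Only the 26 cells of 1000 to 2000 UMIs went the other way (385 CPM on 15 UMIs, against 276 CPM), with an interval of the fold from 0.775 to 2.33.

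**Figure D3:**
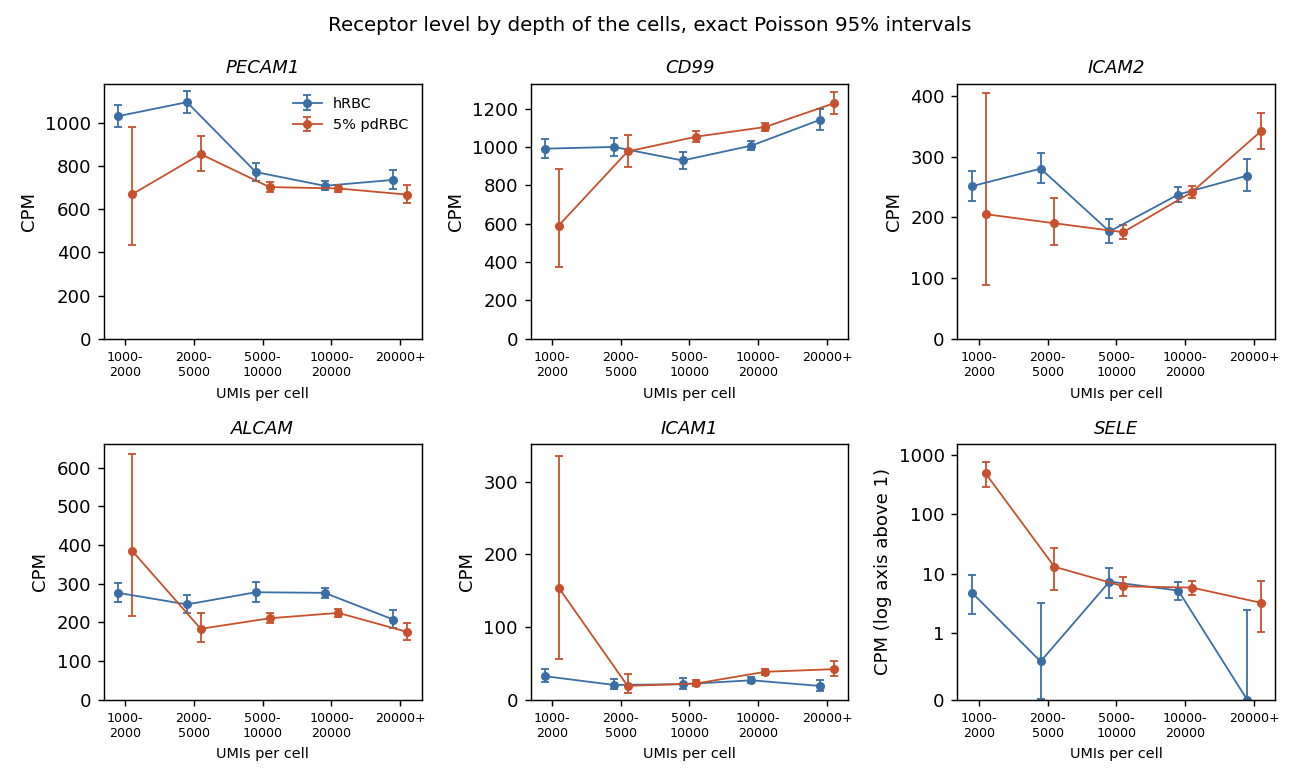
CPM of the 6 measured receptors in cells grouped by their UMIs, in hRBC (blue) and 5% pdRBC (orange), with exact Poisson 95% intervals (SELE on an axis that is logarithmic above 1). ALCAM lies lower with 5% pdRBC in the 4 ranges from 2000 UMIs up, PECAM1 is high in shallow hRBC cells and alike at 10000 to 20000 UMIs, and SELE differs mainly in the shallow ranges.

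ICAM1 (ENSG00000090339, chr19:10270835-10286615, plus strand, 7 exons), the inducible ligand of LFA-1 and Mac-1, had 330 UMIs in hRBC and 529 in 5% pdRBC. Its level was 24.8 CPM (22.2 to 27.7) in hRBC and 33.2 CPM (30.4 to 36.2) in 5% pdRBC, 1.34-fold higher (1.16 to 1.54). Leaving aside the 26 shallowest 5% pdRBC cells (6 UMIs, 154 CPM, against 32.2 CPM in hRBC), ICAM1 differed most in deep cells. The fold was 1.04 (0.718 to 1.57) at 5000 to 10000 UMIs, 1.44 (1.20 to 1.74) at 10000 to 20000 and 2.22 (1.41 to 3.63) at 20000 or more, the last on 28 and 64 UMIs. In the 10000 to 20000 range, 79 of 479 hRBC cells (16.5%, exact binomial 13.3 to 20.1) and 139 of 664 5% pdRBC cells (20.9%, 17.9 to 24.2) held an ICAM1 UMI. Those intervals overlap.

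SELE (ENSG00000007908, chr1:169722641-169764705, minus strand, 14 exons), E-selectin, which catches rolling leukocytes, had 57 UMIs in hRBC and 114 in 5% pdRBC. That is 4.29 CPM (3.25 to 5.56) and 7.15 CPM (5.90 to 8.59), 1.66-fold higher (1.20 to 2.33) with 5% pdRBC. The difference rested mainly on shallow cells. In cells of 1000 to 2000 UMIs, 8 UMIs lay in 7 of 1180 hRBC cells and 19 UMIs in 7 of 26 5% pdRBC cells, 4.86 against 488 CPM. Those 26 cells held 0.244% of the library's UMIs and 16.7% of its SELE UMIs. The 7 SELE-positive ones had a median of 3.11% mitochondrial UMIs and all 26 one of 2.19%, and the part of cell quality in the result was not tested. At 5000 to 10000 UMIs the levels were 7.42 CPM in hRBC and 6.19 CPM in 5% pdRBC (fold 0.816, 0.424 to 1.74), and at 10000 to 20000 UMIs 5.25 and 5.89 CPM (1.12, 0.716 to 1.77). Over cells of 5000 or more UMIs, 9 of 767 hRBC cells (1.17%, 0.538 to 2.22) and 24 of 1363 5% pdRBC cells (1.76%, 1.13 to 2.61) held a SELE UMI, which does not resolve a difference.

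VCAM1 (ENSG00000162692, chr1:100719742-100739045, plus strand, 9 exons), the ligand of the integrin VLA-4, was close to absent from both libraries, with 2 UMIs in 1 hRBC cell and 8 UMIs in 7 5% pdRBC cells. The ratio of its levels was 2.84 with a counting interval of 0.666 to 32.3, so no difference was detectable at this depth. SELP (ENSG00000174175, chr1:169588849-169630193, minus strand, 17 exons), P-selectin, had 7 UMIs in 7 hRBC cells and 6 UMIs in 6 5% pdRBC cells, a ratio of 0.723 (0.199 to 2.48). In no cell did SELP exceed 1 UMI, whereas SELE reached 19 in a single cell.

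When cells were thinned to 2000 UMIs each, 1365 hRBC and 1509 5% pdRBC cells remained and 1180 and 26 were too shallow. Shares of cells then compare at the same number of UMIs, but the cells themselves are not matched. Before thinning, 598 of these hRBC cells and 146 of these 5% pdRBC cells had 2000 to 5000 UMIs. PECAM1 was then seen in 79.4% (77.2 to 81.5) of hRBC and 73.3% (71.0 to 75.5) of 5% pdRBC cells. ALCAM was seen in 37.8% (35.2 to 40.4) and 30.6% (28.3 to 33.0), and ICAM2 in 36.1% (33.6 to 38.7) and 31.1% (28.8 to 33.6). CD99 stood at 84.8% and 85.5%, ICAM1 at 3.66% and 4.37% and SELE at 0.513% and 0.729%, each pair with overlapping intervals. Without thinning the shares followed the depth gap, as with ALCAM at 50.0% and 71.0%, ICAM1 at 7.54% and 16.0% and SELE at 0.668% and 2.08%. The lower ALCAM level with 5% pdRBC thus appeared both as fewer cells with a UMI at equal depth and in the CPM.

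The constitutive genes were spread over most deep cells and the inducible genes were held by few. In cells of 10000 to 20000 UMIs all 4 constitutive receptors were seen together in 79.7% of hRBC and 72.7% of 5% pdRBC cells, and every cell showed at least 2. No inducible receptor was seen in 83.3% and 78.2% of the same cells, and all 3 were seen in 0 of 479 and 2 of 664. Had each cell drawn SELE at the library's mean rate, 55.6 hRBC and 109 5% pdRBC cells would have held a SELE UMI, but 17 and 32 did. The same figures for ICAM1 were 288 and 433 cells at an equal rate and 192 and 246 observed. The ratio of variance to the mean rate, which is 1 for counting alone, was 9.46 and 8.25 for SELE, 4.22 and 4.13 for ICAM1 and 2.14 to 3.22 for the 4 constitutive genes over both libraries.

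SELE UMIs thus lay in few cells of each library. The 10 cells with the most SELE UMIs held 87.7% of them in hRBC and 72.8% in 5% pdRBC, and cells with 5 or more SELE UMIs numbered 4 and 8 and held 68.4% and 65.8%. The highest hRBC cell had 19 SELE and 16 ICAM1 UMIs among 12759, and the highest 5% pdRBC cell had 18 SELE and 8 ICAM1 UMIs among 12839. UMIs that share a cell are not independent, so the counting intervals of the SELE fold are too narrow. To a lesser degree the same holds for ICAM1 and for the 4 constitutive genes, whose variance also exceeded that of counting alone.

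**Figure D4:**
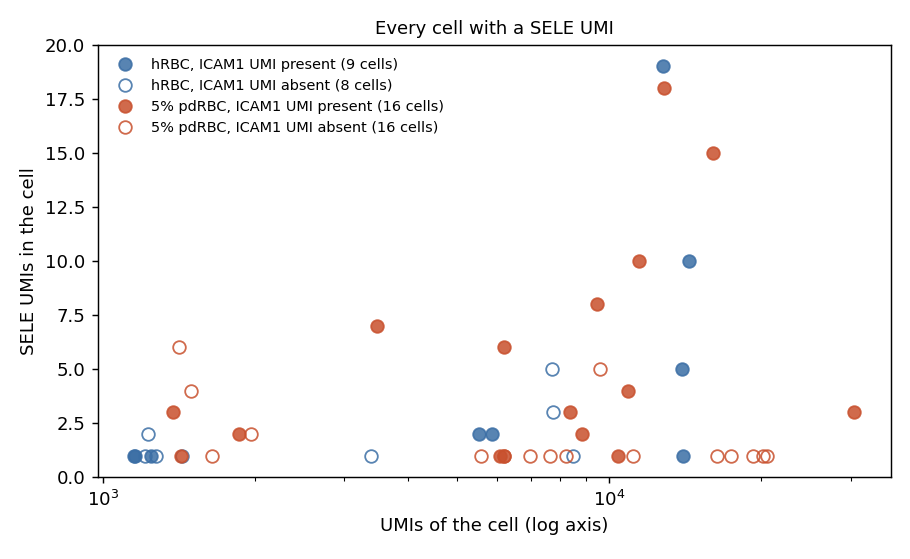
SELE UMIs against all UMIs (log axis) of every endothelial-like cell with a SELE UMI, 17 in hRBC (blue) and 32 in 5% pdRBC (orange), filled where the cell also held an ICAM1 UMI. The highest cells, with 19 SELE UMIs in hRBC and 18 in 5% pdRBC, have 12759 and 12839 UMIs, and 5% pdRBC cells with 2 to 6 SELE UMIs also lie below 2000 UMIs.

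Cells with a SELE UMI held the other inducible receptors at a higher share than cells without. Among cells of 5000 or more UMIs, ICAM1 was seen in 6 of the 9 SELE-positive hRBC cells (66.7%, 29.9 to 92.5) and in 14.9% (12.4 to 17.6) of the 758 SELE-negative cells. In 5% pdRBC it was seen in 12 of 24 (50.0%, 29.1 to 70.9) and in 16.7% (14.7 to 18.8) of 1339. VCAM1, too rare to compare in hRBC, was seen in 3 of the 24 SELE-positive 5% pdRBC cells (12.5%, 2.66 to 32.4) and in 4 of the 1339 others (0.299%, 0.0815 to 0.763). CCL2, a monocyte chemokine that cytokines induce in endothelium, was seen in 77.8% against 23.7% of these hRBC cells and in 79.2% against 24.3% of the 5% pdRBC cells. Of the constitutive genes, ICAM2 was seen in 55.6% of SELE-positive against 82.5% of SELE-negative hRBC cells and in 75.0% against 75.7% in 5% pdRBC. ALCAM was seen in 88.9% against 84.7% (442 and 264 CPM) in hRBC and in 62.5% against 75.4% (147 and 216 CPM) in 5% pdRBC. PECAM1 stood at 1371 CPM in SELE-positive and 717 CPM in SELE-negative hRBC cells, and at 590 and 697 CPM in 5% pdRBC. Of the 9 SELE-positive hRBC cells, 1 with a single SELE UMI held 51 PECAM1 and 17 ALCAM UMIs. The others held at most 19 and 5, so the PECAM1 and ALCAM levels of these hRBC cells lean on 1 cell. The median depth of SELE-positive and SELE-negative cells was 8489 and 12320 UMIs in hRBC and 10002.5 and 10219 in 5% pdRBC, so the positive cells were not the deeper ones.

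By cluster, the ICAM1 fold differed in size, and its direction was resolved only where it was higher with 5% pdRBC. Both libraries were clustered together, and cluster 3, led by the immediate early genes EGR1, FOSB and ATF3 and by KLF4, held 365 hRBC cells with a median of 10930 UMIs and 504 5% pdRBC cells with a median of 10863.5. ICAM1 there stood at 29.5 CPM (24.4 to 35.3) in hRBC and 50.2 CPM (44.6 to 56.3) in 5% pdRBC, 1.70-fold higher (1.37 to 2.13). Cluster 3 held 55.6% of the ICAM1 UMIs of 5% pdRBC and 36.7% of all its UMIs, against 35.2% and 29.6% in hRBC. Outside cluster 3 ICAM1 stood at 22.9 CPM in hRBC and 23.3 CPM in 5% pdRBC, a fold of 1.02 (0.843 to 1.23) that pools clusters on both sides of 1. The 214 hRBC UMIs behind it include 14 and 15 from small clusters found in hRBC alone. Cluster 0, led by the cycling genes MKI67 and UBE2C, gave an ICAM1 fold of 1.75 on 23 and 37 UMIs (1.02 to 3.11). The folds were 1.68 (0.716 to 3.34) in the shallow cluster 1, 1.29 (0.940 to 1.82) in cluster 7, led by LDB2 and MAGI1, and 0.677 (0.449 to 1.01) in cluster 4, led by MGP and FABP4. In hRBC, cluster 4 held 55 ICAM1 UMIs, of which 1 cell held 19 and another 15, so its fold leans on these cells. ICAM1 was seen in 19 hRBC and 24 5% pdRBC cells of that cluster. Cluster 1 had a median of 1582 UMIs in hRBC and 4294 in 5% pdRBC, so its folds compare cells of unlike depth. The clusters were made from the same counts, so these values describe them and do not test them.

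Cluster 3 held 20 SELE UMIs in 2 hRBC cells, 19 of them in 1 cell, and 0 in its 504 5% pdRBC cells, which allows up to 0.595% of cells with a UMI. Outside it the SELE fold was 2.83 (1.96 to 4.26), with 37 and 114 UMIs. In cluster 7, which held 33.4% of all 5% pdRBC UMIs, 54 of the 114 SELE UMIs lay, at 4.63 CPM in hRBC and 10.1 CPM in 5% pdRBC (2.13-fold, 1.18 to 4.38). Cluster 1 held 26 SELE UMIs in 8 of its 54 5% pdRBC cells, 22.8% of the SELE UMIs on 1.85% of all UMIs. SELE stood there at 4.78 CPM in hRBC and 88.0 CPM in 5% pdRBC (17.7-fold, 8.10 to 47.1), between cells of unlike depth. Cluster 0 held 1 SELE UMI in hRBC and 25 in 3 cells of 5% pdRBC, and cluster 4 gave a fold of 0.475 (0.179 to 1.13) on 15 and 9 UMIs.

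Among the clusters of 20 or more cells in both libraries ALCAM was highest in cluster 3, at 378 CPM in hRBC and 298 CPM in 5% pdRBC, and it was lower with 5% pdRBC there (0.790, 0.737 to 0.847) and outside it (0.761, 0.713 to 0.813). In cluster 0 ALCAM was 1.52-fold lower (1.31 to 1.76), and in clusters 4 and 7 the folds of 0.873 (0.738 to 1.03) and 0.927 (0.835 to 1.03) had intervals that held 1. ICAM2 was higher with 5% pdRBC in cluster 3 (265 and 288 CPM, 1.09-fold, 1.01 to 1.18) and cluster 4 (1.19-fold, 1.06 to 1.34), and 1.36-fold lower (1.20 to 1.55) in cluster 0. PECAM1 was lower in cluster 3 (764 and 657 CPM, 0.860, 0.820 to 0.902), where the median depths were alike. Its fold was nearer 1 in clusters 4 (0.925, 0.865 to 0.988) and 7 (0.914, 0.867 to 0.964), and 1.06 (0.972 to 1.16) in cluster 0. CD99 lay between 1.04-fold and 1.19-fold in these 4 clusters. Small clusters found in hRBC alone held the highest ICAM1 levels, 375 CPM on 14 UMIs in 23 cells led by CXCL2 and CXCL1 and 265 CPM on 15 UMIs in 35 cells led by CXCL1 and CCL2.

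**Figure D5:**
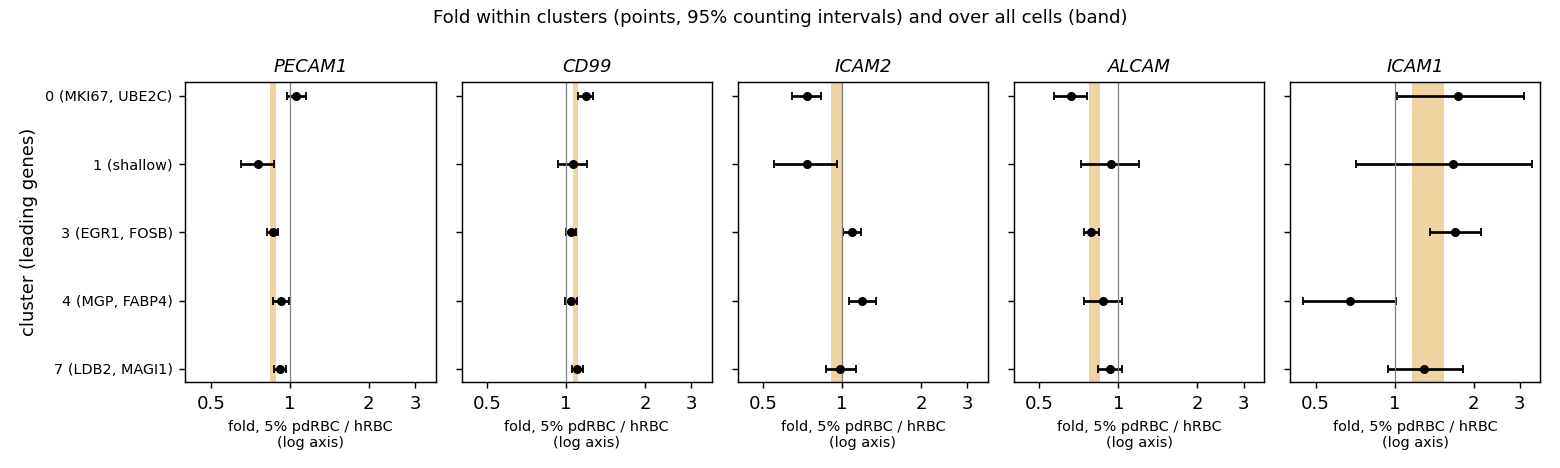
Fold of 5% pdRBC over hRBC (log axis) of 5 receptors within the 5 largest clusters that both libraries share (points, with 95% counting intervals) and over all endothelial-like cells (shaded band, its 95% interval). ICAM1 is 1.70-fold higher in cluster 3 and 0.677-fold in cluster 4, where the interval holds 1. ALCAM lies below 1 in every cluster shown.

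The genes whose level followed these receptors most closely were found over 17 cluster-by-library points of 20 or more cells each, on log2(CPM + 10). The points share libraries and differ in depth, so the values of Pearson's r are descriptions. ICAM1 was closest to SYS1 (0.926), CCL2 (0.893) and DNAJB9 (0.879), over points that include hRBC clusters with 14 and 15 ICAM1 UMIs. PECAM1 was closest to IL6ST (0.942), NEDD4L (0.939) and ENG (0.938), and SELE to AC026347.1 (0.735), CRTC3 (0.704) and AL078459.1 (0.682). For SELE, cluster 1 of 5% pdRBC stood at 88.0 CPM on 26 UMIs, the next highest point at 14.3 CPM, and several points at 0.

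Genes that work with the receptors were taken from 7 lists. Their counts of called genes stand beside the 1.47% higher and 1.17% lower of all measured genes. Their counts of intervals above and below 1 stand beside 14.5% and 12.5% of all measured genes. Of 21 measured cytokine receptors and inducers of the inducible receptors, 1 was called higher and 0 lower, with a median log2 fold of 0.02, and 5 had an interval above 1 and 4 below. JUN, a subunit of AP-1, was the called gene, at 131 CPM in hRBC and 260 CPM in 5% pdRBC (1.98-fold, 1.87 to 2.10). TNFAIP3, an NF-kB target that limits the pathway, was 1.29-fold higher (1.03 to 1.62), and the interferon factor IRF1 was 1.27-fold lower (1.06 to 1.54). Of 7 genes known to restrain the inducible receptors, 2 were called higher and 0 lower, with a median of 0.05: KLF4 (67.0 and 137 CPM, 2.04-fold, 1.88 to 2.21) and ZFP36, which speeds the decay of cytokine RNAs (17.9 and 60.9 CPM, 3.39-fold, 2.95 to 3.93). NOS3, which makes nitric oxide, was 1.39-fold lower (1.28 to 1.52). KLF4 is among the 10 leading genes of cluster 3, where ICAM1 was higher, and its part in the ICAM1 result was not tested.

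A list of leukocyte chemokines with the cytokines IL6 and CSF2 gave 6 measured genes of 10, with 3 called higher (CXCL2, CXCL8 and IL6), 1 lower and a median log2 fold of 0.66. CXCL2 was 1.82-fold higher (1.44 to 2.34) and IL6 1.74-fold higher (1.42 to 2.15), while CXCL1 was 2.23-fold lower (1.94 to 2.57), from 42.9 CPM in hRBC to 19.2 CPM in 5% pdRBC. CXCL8, a neutrophil chemokine held with SELP in Weibel-Palade bodies, was 1.69-fold higher (1.53 to 1.87) and was the 1 gene called of the 14 granule genes (0 lower, median 0.02). Of that list's genes with an interval leaving out 1, the next largest differences were ANGPT2 (1.29-fold higher, 1.18 to 1.42) and AP3B1 (1.12-fold lower, 1.02 to 1.22).

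Other surface partners of leukocytes gave 19 measured genes of 29. Of these, 0 were called higher and 1 lower, 5 had an interval above 1 and 8 below, and the median was -0.04. At high counts an interval can leave out 1 at a small fold. CD9 (8965 and 11122 UMIs) was 1.03-fold higher (1.01 to 1.06), and CD151 (8584 and 9750 UMIs) was 1.06-fold lower (1.03 to 1.09). CD44, a hyaluronan receptor, was the called gene (28.1 and 18.1 CPM, 1.56-fold lower, 1.33 to 1.82). PODXL, a sialomucin of the luminal surface, was 1.45-fold lower (1.40 to 1.497), and CD58, the ligand of CD2, 1.30-fold lower (1.16 to 1.45). Of 17 measured cytoplasmic partners 0 were called, with a median of -0.01: ACTN4, an actin crosslinker, was 1.22-fold lower (1.16 to 1.29), EPS8 1.19-fold higher (1.05 to 1.35) and PTPN11, a phosphatase that PECAM1 recruits, 1.11-fold higher (1.04 to 1.20). Of the 4 measured sheddases, the proteases that cut such receptors from the surface, 0 were called and none had an interval that left out 1. Among close relatives of the members were ICAM3 with 170 and 198 UMIs, CD99L2 with 347 and 381, ICAM4 with 2 and 9 and ICAM5 with 1 and 0.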

How the data were processed

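The data are 2 single-cell libraries, 1 per group. The deposited files hold UMI counts per gene and barcode, made with Cell Ranger 7.0.0 on GRCh38, per the submitters' processing notes; gene names and barcodes are in other deposited files, per the file headers. The sources used here give neither strand use nor annotation release. Positions and transcript lengths are from GENCODE 29, and promoters from RefSeq.

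The receptors and gene lists were chosen with earlier results of these data known. Barcodes were kept (at least 1000 UMIs, at least 500 genes, mitochondrial share up to 20%; 2555 hRBC and 1601 5% pdRBC) and clustered together with Scanpy 1.11.5 (2000 variable genes, 30 components, 15 neighbours, Leiden with python-igraph 0.11.9, resolution 0.5, seed 0). Clusters were named endothelial-like from at least 3 markers. Cluster 9 (10 and 66 cells) was left unnamed, because its cells were shallow for their library and no endothelial marker was among its 10 leading genes. No doublet caller was run.

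UMIs were summed per library and divided by the total to give CPM. Folds have 0.5 UMIs added, with exact Clopper-Pearson 95% intervals (SciPy 1.17.1). A count of 0 allows 3 counts, 0.226 CPM in hRBC and 0.188 CPM in 5% pdRBC. TMM factors came from edgeR 4.0.16 as an alternative. Fold and interval code was tested on simulated data. Named genes are all 8 receptors, the 3 genes of each list with the largest fold whose interval leaves out 1, and the 3 genes closest to ICAM1, SELE and PECAM1 (500 or more UMIs). CD9 and CD151, picked as examples of genes with high counts, and the close relatives of the members are given besides these. CCL2 and further genes in the account of SELE-positive cells, and the clusters picked out, were chosen after values were seen.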

Additional observations from a re-analysis of the deposited data

Results flagged for a closer look

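ALCAM stood at 685 CPM in the 66 cells of 5% pdRBC that lay in the unnamed cluster 9, which the comparisons leave out, with 133 UMIs in 41 of those cells. In the 10 hRBC cells of that cluster it stood at 343 CPM on 15 UMIs, and the 95% counting interval of the fold was 1.17 to 3.66. This is a signal outside the cells compared, above the control library, and it runs against the lower ALCAM level of the endothelial-like cells. PECAM1 was at 756 and 777 CPM in the same cells and CD99 at 321 and 391 CPM.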

How the results depend on the processing

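No paired analysis was possible because each group is 1 library. ALCAM (log2 fold -0.33 to -0.27) and CD99 (0.09 to 0.13) moved by less than their counting intervals under all 15 alternatives run for them, and ICAM1 stayed higher in all 15 (0.17 with every cell weighted equally to 0.72 with depth bins weighted alike). SELE stayed higher in all 15 (0.16 to 2.81), but the 1 receptor called higher became 0 under the stricter cell filter, in cells of 5000 or more UMIs, with thinning to 2000 UMIs, with a gene minimum of 500 UMIs, and, in settings added after seeing the data, in cells of 2000 or more and of 10000 to 20000 UMIs. It became 2 with depth bins weighted alike, where calls go by fold alone. The SELE log2 fold was 0.24 in cells of 5000 or more UMIs. PECAM1 stayed lower in all 15 but moved past its counting interval in 7 of them. Its log2 fold of -0.21 ran from -0.41 with every cell weighted equally to -0.025 in cells of 10000 to 20000 UMIs. ICAM2 moved past its interval in 4, between -0.27 with thinning and -0.0013 with depth bins weighted alike. It reversed to 0.025 in cells of 10000 to 20000 UMIs. The constitutive median of -0.14 became -0.034 in cells of 5000 or more UMIs, -0.28 with every cell weighted equally, -0.30 with thinning, -0.068 with depth bins weighted alike and -0.000306 in cells of 10000 to 20000 UMIs. The inducible median of 0.58 fell to 0.34 in cells of 5000 or more UMIs, 0.34 in cells of 10000 to 20000 UMIs and 0.37 with thinning. It rose to 0.95 with every cell weighted equally and 1.76 with depth bins weighted alike. The last setting gives each depth range the same weight in both libraries. That includes 1000 to 2000 UMIs, where SELE stood at 488 CPM on 19 UMIs in 5% pdRBC. Of all measured genes, the 162 called higher became 259 with every cell weighted equally, 410 with depth bins weighted alike, 325 with a gene minimum of 20 UMIs and 45 with one of 500. The 129 called lower became 312, 246 and 36 with equal weights and these 2 minimums. Apart from the changes that follow from other gene minimums, the cause was not tested. VCAM1 and SELP are limited by depth, at 13 counts or fewer over both libraries.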
